A study of Homo sapiens with 9 samples.

Results

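A set of 10 transcription factor genes of surface ectoderm and amnion was followed across 3 conditions of the human embryonic stem cell line WA09. They are the AP-2 genes TFAP2A, TFAP2B and TFAP2C, the zinc finger genes GATA2 and GATA3, the grainyhead-like genes GRHL1, GRHL2 and GRHL3, the caudal homeobox gene CDX2 and the basic helix-loop-helix gene HAND1. The platform annotation gives these 10 genes 21 probe sets of their own, out of 41091 probe sets with exactly 1 gene and 19775 genes in all. Every one of the 21 entered the tests, since no filter on low values was applied. The genes were taken by name, from knowledge of what they do, but with earlier results of these data known. Counts of calls among them therefore describe the set and are no independent evidence.

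The cells came from 1 established line, at passages that the labels give only as a range, and all groups share the growth protocol. Untreated pluripotent cells (3 arrays) were set against cells given DOX, read here as doxorubicin, a drug that breaks DNA through topoisomerase II, for 5 h (damage, 3 arrays). Cells of the differentiating group (3 arrays) spent 2 days with 1 µM retinoic acid (RA), in a medium without added FGF, so that withdrawal of this growth factor and RA cannot be told apart. Per the labels' protocols the line was grown either on a layer of irradiated mouse fibroblasts or without feeders, and which of these cultures gave each array is not stated. Values are log2 intensities from 1-colour Affymetrix arrays, 1 value per probe set and array. Whether the 3 arrays of a group stem from independent cultures is not stated. The p-values therefore rest on array-to-array spread alone, and that spread may be technical.

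AP-2 proteins bind a GC-rich palindrome and, with GATA2 and GATA3, direct early embryonic cells toward surface ectoderm, amnion and trophoblast, the layers that face outward or surround the embryo. Grainyhead-like proteins act in the same epithelia, where they switch on genes for cell junctions and for the barrier. BMP signalling favours all of these fates in human stem cells. CDX2 marks trophectoderm and, later, the posterior embryo, and HAND1 marks amnion, extraembryonic mesoderm and the heart field.

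The start regions of the genes that rose in both treatments are shown first, because they rose together and because their letters can be searched for sites of the factors in play. The RefSeq promoter table of build GRCh38.p14 holds windows of 300 bases, 250 before and 50 after a start site, for 8 of the 10 genes, 16 windows in all. It lists none for TFAP2C or GRHL2. Which start site the cells used was not measured. Below are the windows at the outermost annotated start of TFAP2A (chr6:10419610-10419909, minus strand), GATA2 (chr3:128493152-128493451, minus strand), GATA3 (chr10:8045083-8045382, plus strand) and GRHL3 (chr1:24319107-24319406, plus strand), and an internal window of GRHL3 (chr1:24322790-24323089, plus strand) that holds a match to a p53 half-site. They run 5′ to 3′ on the gene's strand, and capitals mark matches to the motifs named after them.
TFAP2A: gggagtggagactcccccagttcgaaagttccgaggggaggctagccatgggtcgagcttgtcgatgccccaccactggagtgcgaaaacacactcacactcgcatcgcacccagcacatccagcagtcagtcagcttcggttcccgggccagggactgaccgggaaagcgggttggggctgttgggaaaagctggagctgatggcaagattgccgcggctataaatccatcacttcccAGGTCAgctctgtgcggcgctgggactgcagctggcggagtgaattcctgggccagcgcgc
GATA2: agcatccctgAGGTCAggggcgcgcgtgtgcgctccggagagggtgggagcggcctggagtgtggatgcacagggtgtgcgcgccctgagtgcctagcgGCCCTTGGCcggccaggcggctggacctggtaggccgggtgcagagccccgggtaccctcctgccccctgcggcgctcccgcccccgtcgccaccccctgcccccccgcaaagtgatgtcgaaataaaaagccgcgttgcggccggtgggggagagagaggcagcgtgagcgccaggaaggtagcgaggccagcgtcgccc
GATA3: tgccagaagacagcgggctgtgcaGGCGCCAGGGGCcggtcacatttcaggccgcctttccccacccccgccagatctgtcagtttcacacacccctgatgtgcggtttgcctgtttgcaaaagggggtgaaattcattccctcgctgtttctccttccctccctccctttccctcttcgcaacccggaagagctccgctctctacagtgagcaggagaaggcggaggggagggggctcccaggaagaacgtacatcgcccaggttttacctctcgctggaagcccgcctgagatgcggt
GRHL3: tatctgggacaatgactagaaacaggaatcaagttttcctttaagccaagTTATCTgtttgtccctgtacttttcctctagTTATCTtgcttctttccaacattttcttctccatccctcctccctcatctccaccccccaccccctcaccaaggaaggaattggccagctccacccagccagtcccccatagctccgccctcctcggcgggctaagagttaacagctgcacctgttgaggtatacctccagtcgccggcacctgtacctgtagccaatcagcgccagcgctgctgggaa
GRHL3 internal: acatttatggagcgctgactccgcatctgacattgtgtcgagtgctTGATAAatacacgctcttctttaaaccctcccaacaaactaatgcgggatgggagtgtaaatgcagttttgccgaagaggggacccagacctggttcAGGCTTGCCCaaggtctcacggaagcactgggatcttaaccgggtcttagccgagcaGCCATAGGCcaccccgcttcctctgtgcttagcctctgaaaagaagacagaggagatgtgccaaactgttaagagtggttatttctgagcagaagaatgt

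The 7 motifs were searched on both strands. The AP-2 palindrome GCCNNNGGC was found in 8 of the 16 windows, those of GATA2, GATA3, GRHL3, CDX2 and HAND1, against 23.2% of all 35116 windows in the table. Several windows belong to 1 gene, so this count is a description only. The palindrome is GC-rich, and base composition also differs. The GATA2, GATA3 and HAND1 windows that hold it have 60.7% to 74.7% GC, against a median of 58.7% over all windows. Those of GRHL3 and CDX2 have 50% and 50.3%. The part of base composition in the count was not tested. In the GATA3 window above the palindrome overlaps the element GGCGCC, bound by SMAD proteins that carry the BMP signal. That element lay in 5 of 16 windows (19.2% of all). The retinoid half-site AGGTCA lay in 2 windows (13.8% of all), 11 bases before the start of TFAP2A and 240 before that of GATA2. The GATA letters AGATAA lay in 2 windows (10.3% of all), those of CDX2 and GRHL3, where they read TTATCT on the printed strand, and TGATAA in 1 window of GRHL3 (7.53%). The grainyhead-like letters AACNGGTT lay in 0 of the 16 (1.73% of all), and the p53 half-site in 1 (6.63%). A match shows letters, not binding, and a window without one says nothing about regions farther away.

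TFAP2A, TFAP2C, GATA2, GATA3 and GRHL3 rose after RA and, on their brightest probe sets, after DOX. By the direct test the rise was smaller after DOX for TFAP2A, TFAP2C, GATA3 and GRHL3, while for GATA2 the treatments were not told apart. After RA, 7 of the 21 probe sets rose and 0 fell (adjusted p under 0.05 over all 54613 probe sets tested), where 1.47% of all probe sets rose and 1.48% fell. After DOX, 5 rose and 0 fell, against 3.20% and 4.52% of all probe sets. In the direct comparison of RA with DOX, 8 were higher after RA and 0 lower, against 7.11% and 5.13% of all. At an unadjusted p under 0.05, limma again gave 0 lower probe sets in each of the 3 comparisons, and 7, 12 and 8 higher ones for DOX, RA and RA against DOX. The share of all probe sets or genes at that looser cut was not counted. These unadjusted counts, and those of the marker lists below, therefore have no background to be read against. TFAP2A, TFAP2C, GATA3 and GRHL3 passed in all 3 comparisons, GATA2 in both comparisons with untreated cells, and GRHL1 and GRHL2 in RA against DOX only. The DOX and RA changes share the 3 pluripotent arrays, and each is given with its own values. In RNA from whole cultures, more cells of a type and more RNA per cell cannot be told apart.

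**Figure D1:**
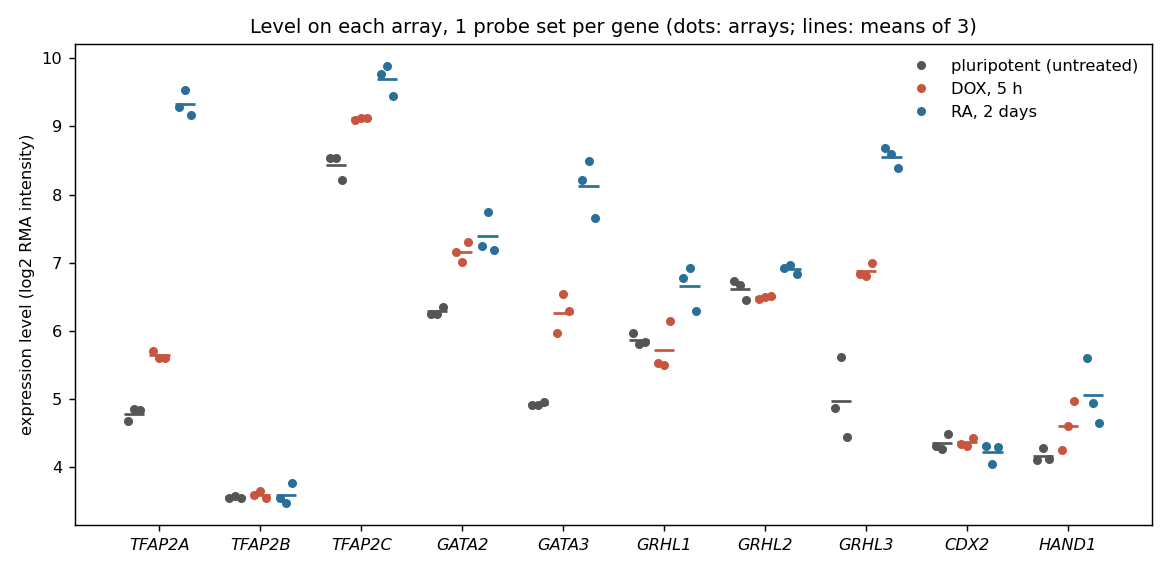
Level of each gene (log2 RMA intensity, vertical axis) on every array for its brightest probe set, with 3 arrays per condition as dots and their mean as a line. TFAP2A goes from means of 4.78 in untreated cells to 5.63 after DOX and 9.33 after RA. Heights of different genes are not comparable.

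TFAP2A, the founding AP-2 gene and a regulator of surface ectoderm and neural crest, had the largest RA change of the set. Its brightest probe set, 204653_at, read 4.67, 4.85 and 4.83 on the pluripotent arrays, 5.71, 5.60 and 5.60 on the damage arrays and 9.29, 9.54 and 9.17 on the differentiating arrays. The 3 groups do not overlap. The pluripotent level lay near the median probe set of an array (4.62 to 4.68), so whether it exceeded background is unknown, and RMA compresses changes at such levels. The RA change was 4.55 on the log2 scale (SE 0.10, 23.4-fold, adjusted p = 2.5e-09) and the DOX change 0.85 (SE 0.10, 1.80-fold, adjusted p = 4.5e-04). RA exceeded DOX by 3.70 (SE 0.10, 13-fold, adjusted p = 4.0e-09). The gene's other probe sets did not share this. Probe set 204654_s_at stayed between 3.25 and 3.58 on 8 arrays and reached 4.18 on the second differentiating array, and 210669_at lay between 3.30 and 3.65 throughout. With the mean of the gene's 3 probe sets, the changes were 1.65 after RA and 0.32 after DOX, both still called (adjusted p = 8.0e-07 and 0.030).

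TFAP2C, the AP-2 gene of trophoblast, germ cells and naive stem cells, was already well expressed and rose in steps. Probe set 205286_at read 8.54, 8.54 and 8.21 in pluripotent cells, 9.10, 9.13 and 9.13 after DOX and 9.77, 9.89 and 9.44 after RA, with no overlap between groups. The third pluripotent and the third differentiating arrays were the low ones of their groups. The change was 0.69 after DOX (SE 0.12, 1.62-fold, adjusted p = 0.0059) and 1.27 after RA (SE 0.12, 2.41-fold, adjusted p = 1.9e-04), and the treatments differed by 0.58 (SE 0.12, adjusted p = 0.011). The dimmer probe set 205287_s_at changed by 0.37 and 0.89 without passing (adjusted p = 0.46 and 0.094). With the mean of both, the DOX change was 0.53 and lost its call (adjusted p = 0.065). TFAP2B, an AP-2 gene of neural crest and kidney, passed nowhere: its 3 probe sets lay between 2.78 and 3.89 on all arrays, below the median probe set. The 95% interval of its RA change on the brightest probe set ran from −0.15 to 0.22.

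GATA3, a zinc finger factor of trophoblast, amnion and skin, rose on all 3 of its probe sets after RA. The brightest, 209604_s_at, read 4.91, 4.91 and 4.96 in pluripotent cells, 5.96, 6.54 and 6.29 after DOX and 8.21, 8.50 and 7.66 after RA. The groups are well apart, and the third differentiating array is the lowest of its group. Its RA change was 3.20 (SE 0.19, 9.19-fold, adjusted p = 5.7e-06), its DOX change 1.34 (SE 0.19, 2.53-fold, adjusted p = 0.0017), and RA exceeded DOX by 1.86 (SE 0.19, adjusted p = 1.0e-04). The other probe sets, 209602_s_at and 209603_at, rose by 2.76 and 1.57 after RA (adjusted p = 4.3e-05 and 2.4e-04). After DOX they stood at 0.49 and 0.43 and did not pass (adjusted p = 0.25 and 0.15), although the damage arrays lay above the pluripotent arrays on both. The DOX call of GATA3 thus rests on 1 of 3 probe sets, and when probe sets ending in x_at or s_at, which can bind several transcripts, were dropped, the gene was at 0.43 after DOX (adjusted p = 0.10) and at 1.57 after RA (adjusted p = 9.8e-05).

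GATA2, its close relative in trophoblast and blood, rose after both treatments, with levels that overlapped between them. Probe set 209710_at read 6.25, 6.25 and 6.35 in pluripotent cells, 7.15, 7.01 and 7.31 after DOX and 7.25, 7.75 and 7.18 after RA. Both treated groups lie above the pluripotent arrays and overlap each other. The changes were 0.87 after DOX (SE 0.14, 1.83-fold, adjusted p = 0.0030) and 1.11 after RA (SE 0.14, 2.16-fold, adjusted p = 0.0011). RA minus DOX was 0.24 (SE 0.14, adjusted p = 0.35), with a 95% interval from −0.07 to 0.54. Its other probe sets, 207954_at and 210358_x_at, lay between 4.77 and 5.72 on all arrays and passed in no comparison. With the mean of all 3 the changes were 0.34 and 0.39, both called (adjusted p = 0.013 and 0.010).

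**Figure D2:**
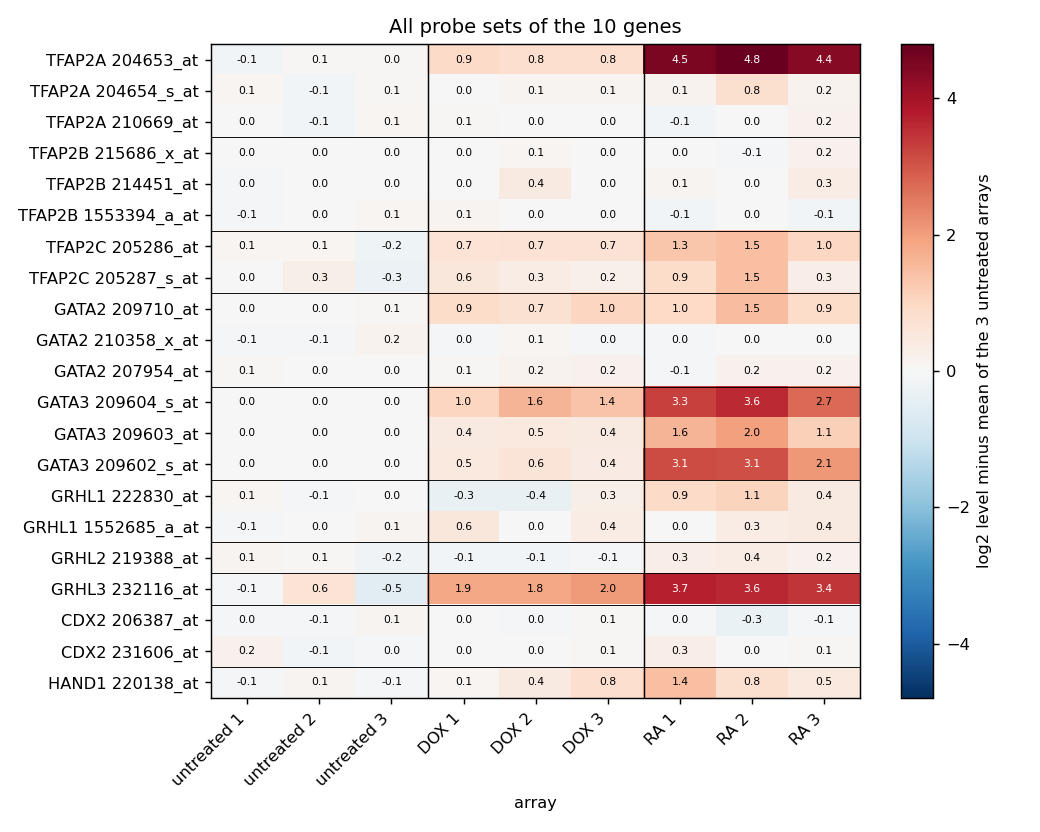
Log2 level of all 21 probe sets (rows) on the 9 arrays (columns), each minus the mean of its 3 untreated arrays. Red marks higher and blue lower values. The deepest red lies on the RA arrays for TFAP2A 204653_at, GATA3 and GRHL3, and the other probe sets of TFAP2A and GATA2 stay pale.

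GRHL3, the grainyhead-like gene of the epidermal barrier and of neural tube closure, rose most among its family. Its single probe set, 232116_at, read 4.86, 5.61 and 4.44 in pluripotent cells, 6.83, 6.81 and 7.0 after DOX and 8.69, 8.59 and 8.39 after RA. The groups do not overlap even though the pluripotent arrays spread over more than a log2 unit (mean 4.97 ± 0.59 SD, n = 3). The RA change was 3.59 (SE 0.23, 12.0-fold, adjusted p = 7.7e-06), the DOX change 1.91 (SE 0.23, 3.77-fold, adjusted p = 4.6e-04) and RA minus DOX 1.67 (SE 0.23, adjusted p = 6.6e-04). It was the largest DOX change among the 10 genes.

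GRHL1 and GRHL2, whose proteins switch on genes for epithelial junctions, did not follow GRHL3 after DOX. For GRHL2, probe set 219388_at read 6.73, 6.67 and 6.45 in pluripotent cells, 6.47, 6.49 and 6.51 after DOX and 6.92, 6.97 and 6.83 after RA. The damage arrays overlap the pluripotent arrays and lie below all differentiating arrays. Its change was −0.13 after DOX (adjusted p = 0.49) and 0.29 after RA (adjusted p = 0.13), and only RA against DOX passed, at 0.42 (SE 0.09, adjusted p = 0.0084). For GRHL1, probe set 222830_at read 5.96, 5.81 and 5.83, then 5.52, 5.5 and 6.15 after DOX, then 6.77, 6.92 and 6.29 after RA. It changed by −0.15 after DOX (adjusted p = 0.75) and 0.79 after RA (SE 0.19, adjusted p = 0.052), and RA exceeded DOX by 0.94 (SE 0.19, adjusted p = 0.0072). The RA change lies at the threshold: it passed in 8 of 16 other settings, among them the fit with 1 probe set per gene (adjusted p = 0.029). The dimmer GRHL1 probe set, 1552685_a_at, passed in no comparison.

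HAND1 had values above untreated cells without passing. Probe set 220138_at read 4.10, 4.28 and 4.11 in pluripotent cells, 4.25, 4.6 and 4.97 after DOX and 5.60, 4.94 and 4.65 after RA. The differentiating arrays lie above the pluripotent ones and spread widely, and the damage arrays overlap both. The RA change was 0.90 (SE 0.23, adjusted p = 0.067, with 0.038 in the fit with 1 probe set per gene) and the DOX change 0.45 (SE 0.23, adjusted p = 0.32). CDX2, the trophectoderm gene, passed in no comparison. Its probe set 206387_at lay between 4.04 and 4.49 on all 9 arrays and 231606_at between 3.12 and 3.58, below the median probe set. The 95% interval of the CDX2 change on 206387_at ran from −0.21 to 0.21 after DOX and from −0.36 to 0.06 after RA.

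**Figure D3:**
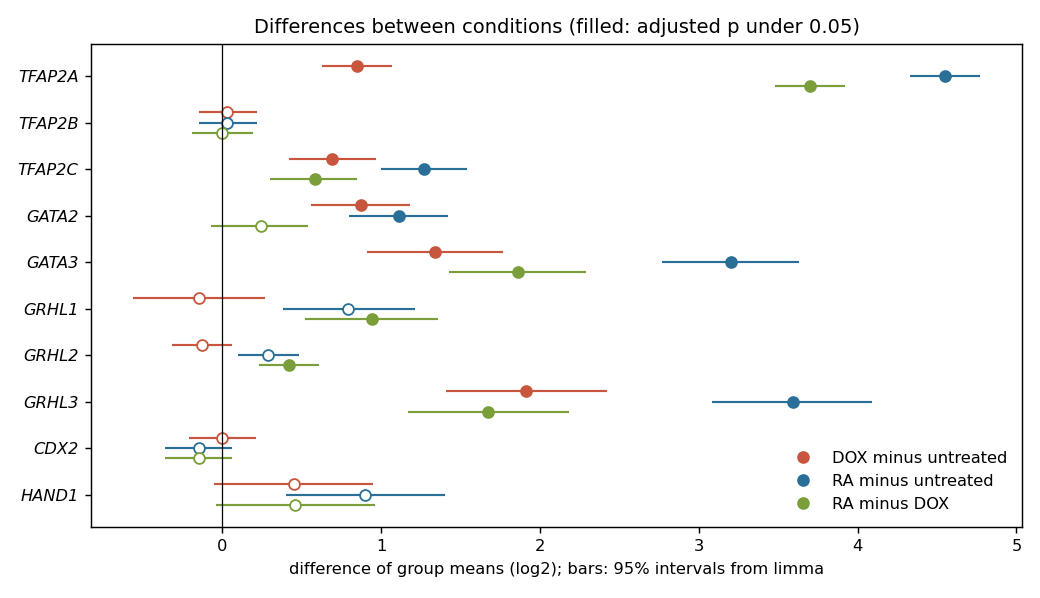
Difference of group means (log2, horizontal axis) with 95% intervals for the brightest probe set of each gene, for DOX minus untreated, RA minus untreated and RA minus DOX. Filled circles passed at an adjusted p under 0.05. TFAP2A, GATA3 and GRHL3 have RA changes of 4.55, 3.20 and 3.59, and GATA2 is the called gene whose RA minus DOX difference is not filled.

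The differentiating arrays were not alike for these genes. On all 7 probe sets called after RA the third differentiating array was the lowest of its group, and the second was the highest on 5. The spread within the group ran from 0.30 for GRHL3 to 1.04 for GATA3 209602_s_at. Among all 802 probe sets called higher after RA, the third array was lowest on 47.4% and the second highest on 52.0%. These shares were counted separately, and how often both held on the same probe set was not counted. The probe sets share arrays and are not independent. Arrays of 1 group correlated at 0.994 to 0.997 over all probe sets, and no pair among 36 held identical values. The third pluripotent array had the lowest array weight (0.578), and without it the counts of 5 and 7 higher member probe sets were the same.

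The labelled cell type was checked against its markers. Of 10 stem cell markers 8 had probe sets of their own, and their mean level lay between 12.0 and 12.2 on the pluripotent arrays, 11.9 and 12.0 on the damage arrays and 12.1 and 12.2 on the differentiating arrays. None of the 8 passed after RA (at an unadjusted p under 0.05, 3 were higher and 1 lower), and SOX2 fell by 0.46 after DOX (adjusted p = 0.0055). For the lists below, each gene is represented by its brightest probe set. By this measure 4.67% of all 19775 genes rose and 7.40% fell after DOX, and 2.42% rose and 2.43% fell after RA. The median change of all genes was −0.005 after DOX and −0.004 after RA.

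No measured gene of the trophoblast marker list passed. The members TFAP2C, GATA2 and GATA3, which also act in trophoblast and rose after both treatments, are not on that list. The 8 measured markers include the hormone gene CGA, the aromatase gene CYP19A1 and the transcription factor gene GCM1. Of the 8, 0 passed in either direction after DOX or RA in limma's test, and 0 at an unadjusted p under 0.05. Their mean level was 4.4 to 4.54 in pluripotent, 4.49 to 4.6 in damage and 4.43 to 4.6 in differentiating cells. Of the amnion list, 13 of 15 genes were measured. After RA 3 rose and 2 fell: BMP4, the ligand that induces amnion, rose by 1.67 (SE 0.13, adjusted p = 3.8e-05), with IGFBP3 at 0.40 and the LIM homeobox gene ISL1 at 0.80, while the matrix gene TNC fell by 1.62 and the annexin gene ANXA3 fell by 1.31. After DOX 4 rose and 0 fell, namely EPAS1 (1.53), ANXA3 (1.30), IGFBP3 (1.11) and TNC (0.85), so TNC and ANXA3 moved in opposite directions in the 2 treatments. BMP4 was at −0.31 after DOX (adjusted p = 0.23), and RA exceeded DOX by 1.97 (adjusted p = 3.3e-06). The median change of the list was 0.16 after RA and 0.08 after DOX. The amnion genes GABRP and VTCN1 stayed below the median probe set, with RA changes of 0.21 and −0.06 that did not pass (adjusted p = 0.61 and 0.85). IGFBP3 and ISL1 after RA, and TNC after DOX, are named after their values were seen, to account for the counts. ISL1 passed in only 1 of the 6 fits that left out 1 array.

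Of 20 listed genes of surface ectoderm and epidermis 17 were measured, and within each treatment taken alone most did not pass. After RA 5 rose and 0 fell (median 0.13), led by the homeobox genes DLX5 at 1.88 (SE 0.14, adjusted p = 2.9e-05) and MSX2 at 1.30 (adjusted p = 3.5e-04) and by the epithelial factor ELF3 at 1.28 (adjusted p = 9.7e-05). After DOX 6 rose and 0 fell (median 0.19), led by SFN, which encodes the checkpoint protein 14-3-3 sigma, at 2.62 (SE 0.16, adjusted p = 2.6e-06). OVOL1 (1.26), ELF3 (1.2) and KLF5 (1.02), all epithelial transcription factors, followed. DLX5 and MSX2 were at 0.11 and 0.28 after DOX (adjusted p = 0.76 and 0.30) and lower than after RA by a direct test (RA minus DOX 1.77 and 1.02, adjusted p = 1.4e-05 and 6.5e-04). SFN was at −0.07 after RA (adjusted p = 0.94), with RA minus DOX at −2.69 (adjusted p = 1.4e-06). ELF3 overlapped between the treatments, with RA minus DOX at 0.08 (adjusted p = 0.73). SFN is also known as a target gene of p53. The keratin genes KRT5, KRT14 and KRT15 of stratified epithelium and KRT7 of simple epithelium passed in neither treatment, with changes of −0.05, 0.12, 0.06 and −0.03 after DOX and −0.21, 0.12, −0.15 and −0.29 after RA. Other keratin genes of the list were called. KRT19 rose by 0.98 after RA (adjusted p = 1.6e-05) and was at 0.19 after DOX (adjusted p = 0.14). KRT8 and KRT18 rose by 0.48 and 0.42 after DOX (adjusted p = 0.0033 and 0.016). After RA these 2 were at 0.13 and 0.29 and did not pass. KRT18 kept its DOX call in 3 of the 6 fits that left out 1 array. All these keratin genes are named after their values were seen.

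Most epithelial genes bound or controlled by grainyhead-like proteins did not pass in either treatment. Of 15 measured genes 3 rose and 0 fell after RA (median 0.05), while 2 rose and 4 fell after DOX (median 0.02). CLDN4, the tight junction claudin, rose in both: it read 5.82, 5.92 and 5.86 in pluripotent cells, 6.45, 6.42 and 6.48 after DOX and 7.51, 7.76 and 7.16 after RA. Its changes were 0.59 (adjusted p = 0.016) and 1.61 (SE 0.13, adjusted p = 3.8e-05). The epithelial repressor OVOL2 fell by 0.76 after DOX (adjusted p = 7.5e-04) and was at 0.45 after RA (adjusted p = 0.033). The membrane protease PRSS8 fell by 0.56 after DOX (adjusted p = 0.0057) and was at 0.50 after RA (adjusted p = 0.021). RA exceeded DOX by 1.2 for OVOL2 and 1.07 for PRSS8 (adjusted p = 1.5e-05 and 4.7e-05). The splicing factor gene ESRP1 and the receptor gene ERBB3 fell after DOX by 0.50 and 0.46, and ST14, the matriptase gene, rose by 0.54. These 5 genes are named after their values were seen. The CLDN4 call after DOX held in 4 of the 6 fits that left out 1 array (highest adjusted p = 0.068), and the count of 2 that rose after DOX dropped to 1 without the first pluripotent or the third damage array. The count of 3 after RA dropped to 1 without any single pluripotent array or without the first or second differentiating array. OVOL2 kept its RA call in 0 and PRSS8 in 1 of the 6 fits that left out 1 array. CDH1 and EPCAM, the main adhesion genes of stem cells and epithelia, stayed above 11.1 on every array, with RA changes of 0.01 and −0.21 (adjusted p = 0.98 and 0.22).

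**Figure D4:**
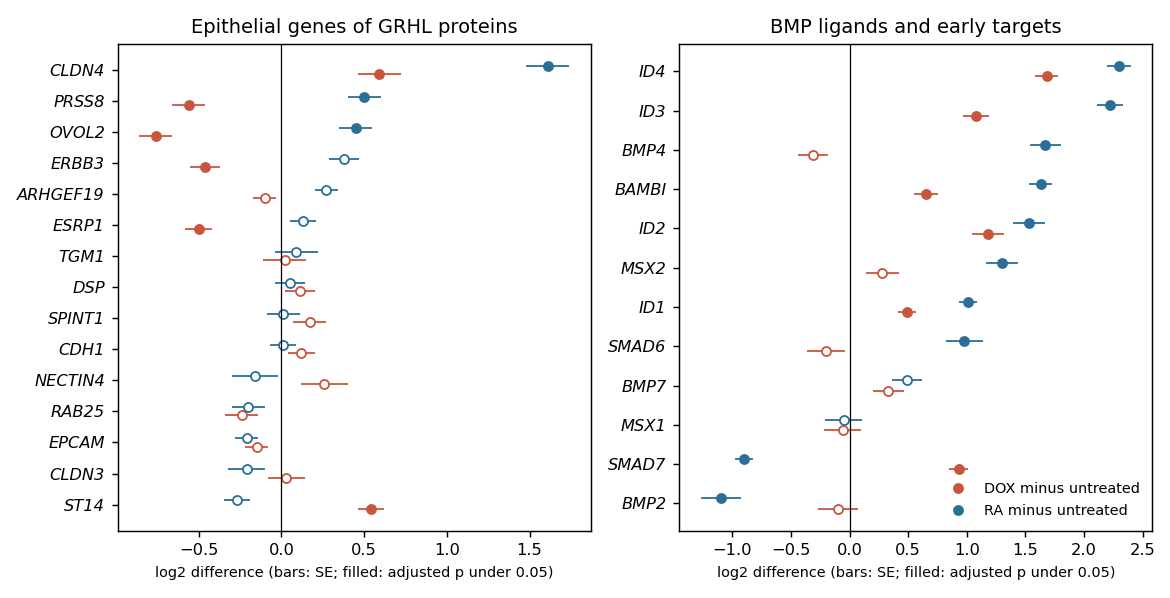
Log2 difference from untreated cells (horizontal axis, bars are SE) after DOX and after RA for the measured epithelial genes of GRHL proteins (left) and BMP ligands and early targets (right). Filled circles passed at an adjusted p under 0.05. OVOL2 and PRSS8 lie left of 0 after DOX and right of it after RA, while ID3, ID4 and BAMBI lie right of 0 in both.

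BMP ligands and early targets belong to a signal known to act upstream of several of the regulators. Of 12 measured genes 8 rose and 2 fell after RA (median 1.16), and 6 rose and 0 fell after DOX (median 0.41). The helix-loop-helix inhibitor genes ID3 and ID4 rose by 2.22 and 2.30 after RA (adjusted p = 1.4e-06 and 7.7e-07) and by 1.08 and 1.68 after DOX (adjusted p = 1.4e-04 and 2.7e-06). ID2 rose by 1.53 and 1.18, and BAMBI, a decoy receptor, by 1.63 and 0.65. BMP2 fell by 1.10 after RA. SMAD7, an inhibitor of the pathway, fell by 0.90 after RA and rose by 0.93 after DOX, a value named after it was seen. The list was known from earlier results of these data to move and is no independent evidence.

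Partners of the regulators and the rest of their families were counted in the same way. Over all genes 4.67% rose and 7.40% fell after DOX, and 2.42% rose and 2.43% fell after RA. Of 13 partner and inhibitor genes, among them the CITED and KCTD genes that act with or against AP-2 and the E-protein genes that pair with HAND1, 0 rose and 3 fell after DOX and 0 rose and 1 fell after RA. The 3 were the E-protein genes TCF3, TCF4 and TCF12, at −0.31, −0.35 and −0.46, and TCF12 was at −0.35 after RA. Each of TCF3 and TCF4 kept its call in at most 3 of the 6 fits that left out 1 array, and TCF12 after RA in 1. Of 12 relatives outside the set, GATA5 rose by 1.02 after RA (SE 0.16, adjusted p = 0.0052), from 3.42, 3.21 and 3.23 to 4.41, 4.63 and 3.89, all below the median probe set. TFCP2 was at −0.34 after DOX (adjusted p = 0.011). The E-protein genes and TFCP2 are named after their values were seen. GATA4 and GATA6, the endoderm members, did not pass.

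Markers of other cell types moved as follows. Of 9 mesoderm markers 1 rose and 1 fell after DOX and 0 passed after RA (0 at an unadjusted p under 0.05), with TWIST1 at 1.41 after DOX. The primitive streak genes TBXT and MIXL1 were at −0.01 and −0.11 after RA (adjusted p = 0.98 and 0.72). Of 9 endoderm markers 2 rose after DOX, CER1 (1.97) and CXCR4 (0.31, adjusted p = 0.037). The count dropped to 1 without any single pluripotent array or without the first or the second damage array, and CXCR4 kept its call in 1 of the 6 fits that left out 1 array. After RA HHEX rose by 3.29 and CER1 fell by 1.05, while SOX17, FOXA2 and FOXA1 stayed below 4.0 on average in every group. Of 9 neural ectoderm markers OTX2 fell by 1.56 after RA (adjusted p = 4.4e-04) and the others did not pass. Of 10 fibroblast markers 3 rose after DOX, ACTA2 (1.70), TAGLN (1.59) and COL1A1 (1.08), and the mean level of the list was 7.68 to 7.79 in damage arrays against 7.15 to 7.20 in pluripotent and 7.05 to 7.12 in differentiating arrays. After RA COL1A1 (1.00) and COL3A1 (0.57) rose and TAGLN fell by 1.76. At an unadjusted p under 0.05 in limma's test, 7 of the 10 were higher and 0 lower after DOX, and 2 were higher and 2 lower after RA. The share of all genes at this cut was not counted. THY1 was at 0.33 after DOX (adjusted p = 0.076), and LUM, POSTN and DCN lay at group means of 3.12 to 4.81 and did not pass. The part of these cells in the DOX changes of the regulators was not tested.

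Genes with the profile most like that of the 3 regulators with the largest RA change were sought among 637 genes whose group means differ by at least 1. Likeness is Pearson's correlation over the 9 arrays, which form 3 groups, and it is given as a description. For TFAP2A the closest were the annexin gene ANXA9 (r = 0.999), ZMIZ1 (0.994), the homeobox gene MEIS2 (0.992), MLPH (0.991) and TFPI (0.991). ANXA9 rose by 0.61 after DOX and 3.29 after RA (adjusted p = 0.0033 and 2.9e-08). The other 4 rose by 1.17 to 4.18 after RA. Their DOX changes of 0.18 to 0.41 did not pass, although the damage arrays lay above the pluripotent arrays for each. For GRHL3 the closest were CADM1 (0.990), ID3 (0.984), TFAP2C (0.978), TENT5A (0.978) and LRP10 (0.971), and all 5 rose after both treatments. For GATA3 they were BAMBI (0.990), TENT5A (0.990), CLDN4 (0.989), HOXB2 (0.984) and the hyaluronan synthase gene HAS2 (0.978), of which HOXB2 did not pass after DOX (0.57, adjusted p = 0.079).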

How the data were processed

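The authors made the deposited log2 values with RMA and the package affy, per the submitters' processing notes, which give no version. RMA corrects background, normalises by quantiles and compresses the changes of dim probe sets. The log2 scale was read from the values (2.36 to 14.84). Arrays were grouped by their labels. Of 54675 probe sets, 62 controls were left out. The platform annotation gives 1 gene for 41091, several for 1801 and none for 11721. Symbols were matched by Entrez identifier to RefSeq (GRCh38.p14) for 41037, and 0 changed.

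limma 3.58.1 in R 4.3.3 (lmFit, eBayes; 6 residual and 4.64 prior degrees of freedom) was fitted to all 54613 other probe sets and 9 arrays, with Benjamini-Hochberg adjustment over them and calls at an adjusted p under 0.05. The small number of arrays limits precision. A gene's brightest probe set is the one with the highest mean over the arrays. The fit was tested on simulated data. The members, the 12 related lists (some share genes) and the motifs were chosen with earlier results of these data known. In each list, called genes with a change of at least 1 (2-fold) were named, up to 5 per list and treatment. Alternatives were the choice of probe set, level, spread, arrays, normalization, centring, array weights, the replicate number as a block and leaving out each array.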

Additional observations from a re-analysis of the deposited data

How the results depend on the processing

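The counts of member probe sets kept their direction in all 13 alternatives of each comparison. The number higher after DOX ran from 5 to 7, after RA from 6 to 10 and for RA against DOX from 6 to 9, and 0 were lower in each. Leaving out 1 array gave 5 higher after DOX, 7 to 10 after RA and 8 to 9 for RA against DOX. The correlation of deviations between same-numbered arrays ran from −0.1 to 0.396 and was not over 0.1 in every pair, so the arrays were not treated as paired. Whether a number marks a shared culture or day is not stated. With the replicate block the counts were 5, 8 and 8. Single genes gave 471 values under the alternatives. Of these 2 lost a call (TFAP2C and GATA3 after DOX) and 14 gained one (8 for GRHL1 and 6 for HAND1, both after RA). Another 13 changed sign with no call on either side, of TFAP2B, CDX2 and GRHL1. No called value changed sign. The causes were not tested. Without counts of background, levels near or below the median probe set are not shown to be above background.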

Other observations

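Each of TFAP2A, GATA2 and GATA3 has an antisense neighbour on the array, looked at after the annotation was read. None of the 5 probe sets of TFAP2A-AS1, GATA2-AS1 and GATA3-AS1 passed in any comparison. Their RA changes ran from 0.09 to 0.28 on the log2 scale (adjusted p from 0.22 to 0.81), where the brightest probe sets of the 3 coding genes rose by 4.55, 1.11 and 3.20. All lay between 2.99 and 5.06, and whether they were above background was not tested.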
